A study of Drosophila melanogaster with 12 samples.

Results

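Programmed cell death in the fly is held in check by inhibitor of apoptosis proteins, which bind caspases. Antagonists such as the products of rpr, grim, skl and hid bind those inhibitors and so free the caspases to act. The apoptosome scaffold Dark activates the initiator caspase Dronc, which in turn activates effector caspases such as Dcp-1 and Drice. In the developing eye disc, cell death removes surplus cells, and Ras signalling is known to promote survival by repressing hid. Described here are 8 genes of this machinery and of caspase pathways close to it, rpr, grim, skl, Dark, Dredd, dnr1, Dcp-1 and Traf4, chosen by name from 15904 gene rows. All 8 were found, Dark under its older symbol Ark, which occupies the locus annotated as Dark.

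Total RNA came from eye discs of wandering Drosophila melanogaster larvae, 30 pairs of discs per preparation, in 12 samples that form 4 groups of 3. All groups shared the w1118 background and sev-GAL4/UAS-GFP. The EP3037 group carried EP3037/UAS-RasV12 and was labelled as having hsrω, a long noncoding RNA, raised. The hsrω RNAi group carried UAS-hsrωRNAi over UAS-RasV12 and was labelled as having hsrω lowered. The Ras group carried UAS-RasV12/dco2, and the control carried dco2/+ and no RasV12. RasV12 is a constitutively active Ras. The driver sev-GAL4 acts in sevenless-expressing cells, which are only some of the cells of a disc, so a change limited to them is diluted in whole-disc RNA. The allele dco2 is listed in the Ras and control groups and not in the EP3037 and hsrω RNAi groups, so the effect of dco2 cannot be told apart from that of the hsrω constructs in any comparison that crosses these pairs of groups.

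For each gene, Cuffdiff reduced the samples of a group to a single FPKM, and that is the deposited value. FPKM is a level scaled by transcript length and by the number of sequenced fragments, so genes can be compared with each other, but the deposited values carry no SD, no value per sample and no read depth. A gene was called changed when its Cuffdiff q in the authors' deposited tables was at or under 0.05, a q that adjusts for all 65927 tests of the 6 comparisons. Between 9213 and 9428 rows reached 1 FPKM in a group. All 12 eye disc markers examined were at 1 FPKM or more in every group, with medians of 38.9 FPKM in the EP3037 group, 50.4 in the hsrω RNAi group, 47.0 in the Ras group and 44.8 in the control. Hsromega itself, the gene of hsrω, was at 606, 398, 389 and 543 FPKM in that same order of groups, and none of its 6 comparisons was called, the smallest p being 0.385 in the authors' deposited tables.

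Of the 48 tests that 8 genes and 6 comparisons gave, 2 were called, which is 4.17%, beside 703 of 65927 tests of all rows, or 1.07%. At an unadjusted p of 0.05 or less, 7 of the 48 passed, which is 14.6%, beside 6.23% of the tests of all rows. The 8 genes were picked with results of these data known and the comparisons share groups, so these shares are no test of the set. The gene dnr1, which encodes a RING-domain inhibitor of the caspase Dredd, rose 1.78-fold in the EP3037 group over the Ras group. The gene Traf4, which encodes an adaptor between tumour necrosis factor receptors and the JNK pathway, rose 1.62-fold in the hsrω RNAi group over the control. The death inducers rpr, grim and skl, the scaffold gene Dark and the caspase genes Dredd and Dcp-1 were called in none of the 6 comparisons.

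**Figure D1:**
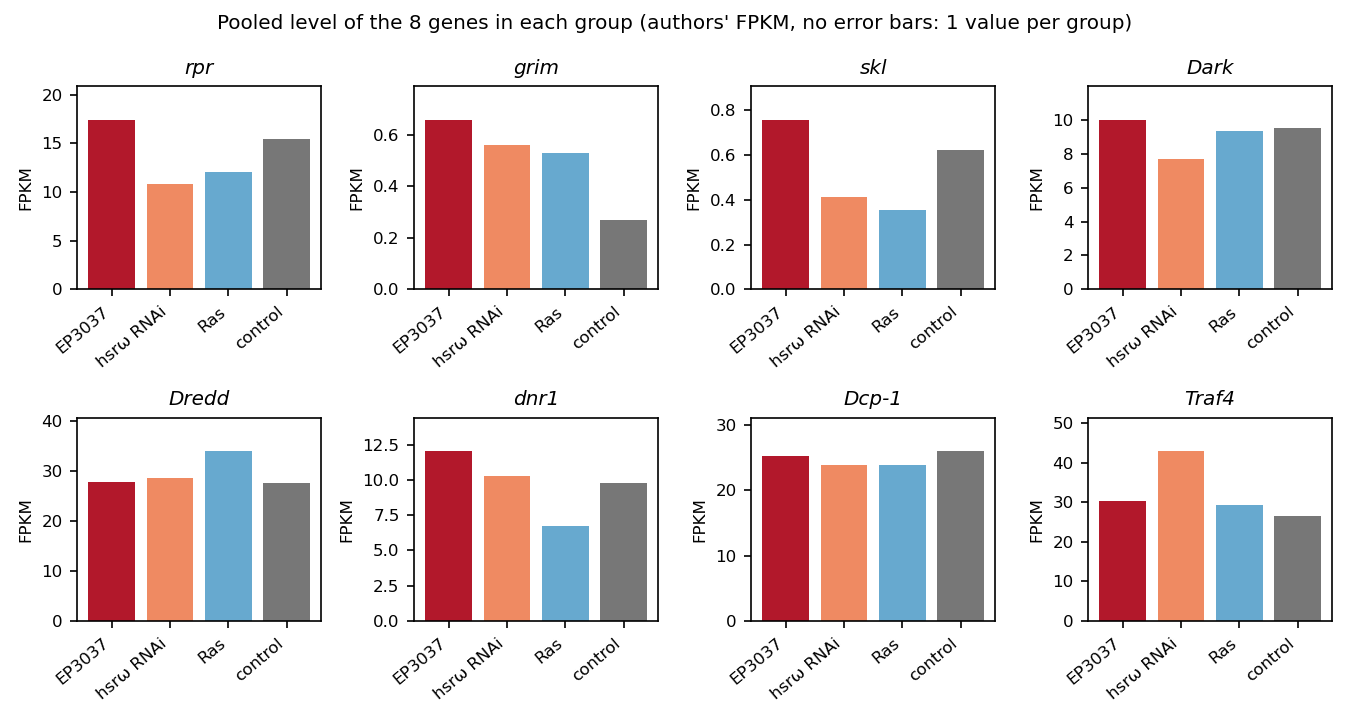
Level of each of the 8 genes (y axis, FPKM from 0, a separate scale for each gene) in the EP3037, hsrω RNAi, Ras and control groups (x axis), each bar being the authors' 1 pooled value for that group. The lowest bar of dnr1 is that of the Ras group at 6.75 FPKM, the highest bar of Traf4 is that of the hsrω RNAi group at 42.8 FPKM, and grim and skl lie under 1 FPKM in every group.

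The antagonists of the inhibitor proteins come first. In dm6 coordinates rpr (chromosome 3L, 18397535 to 18398435, minus strand) is a protein-coding gene with 1 exon of 901 nt. It was at 17.4 FPKM in the EP3037 group, 10.9 FPKM in the hsrω RNAi group, 12.1 FPKM in the Ras group and 15.4 FPKM in the control. Its product, Reaper, is a short protein that displaces caspases from the inhibitor Diap1. The level was thus highest in the EP3037 group and lowest in the hsrω RNAi group, and these stood 1.60-fold apart (p = 0.0106, q = 0.363 in the authors' deposited table). Against the Ras group, rpr was 1.44-fold higher in the EP3037 group (p = 0.0580, q = 0.848 in the authors' deposited table). Against the control, its log2 difference was -0.51 in the hsrω RNAi group (p = 0.0628, q = 0.878 in the authors' deposited table) and -0.35 in the Ras group (p = 0.222). No difference of rpr passed the threshold. Among the 3841 tested rows within a factor of 2 of its level, 118 were called between the EP3037 and hsrω RNAi groups. The smallest fold among these was 1.61. Calls rest on q and not on the fold, and the largest p called by Cuffdiff was 0.0005 in the authors' deposited tables.

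Both other members of this family were close to the bottom of the measured range. The gene grim (chromosome 3L, 18302719 to 18304417, minus strand, 1 exon of 1699 nt) was at 0.659 FPKM in the EP3037 group, 0.562 in the hsrω RNAi group, 0.532 in the Ras group and 0.270 in the control. The gene skl, sickle (chromosome 3L, 18438561 to 18439942, minus strand, 1 exon of 1382 nt), was at 0.757, 0.412, 0.356 and 0.622 FPKM in these groups. The control was the lowest group for grim, while the Ras group was the lowest for skl. The largest difference of grim, 2.44-fold in the EP3037 group over the control, had p = 0.0929 and q = 1.00 in the authors' deposited table. The largest of skl, 2.13-fold in the EP3037 group over the Ras group, had p = 0.161 by Cuffdiff in the authors' deposited table. At this level Cuffdiff called few rows: among the 1547 tested rows within a factor of 2 of grim, 3 were called between the EP3037 group and the control, none of them with less than a 2.65-fold difference. Annotated noncoding genes also lie over grim, the antisense gene CR45974 across 44.1% of its exonic bases and the sense gene CR45975 across 31.8%, and the tables have no separate rows for them.

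With hid, the fourth of these antagonists, the 3 genes lie within 272 kb of chromosome 3L, all on the minus strand. The interval held 10 gene rows, of which 2, hid and rpr, were at 1 FPKM or more in every group. The gene hid (chromosome 3L, 18167745 to 18185641, listed under its symbol W) was at 23.7 FPKM in the EP3037 group, 27.3 in the hsrω RNAi group, 23.8 in the Ras group and 28.05 in the control. It was called in no comparison. The summed level of hid, rpr, grim and skl was 42.5, 39.1, 36.8 and 44.4 FPKM in these groups, so it was lowest in the Ras group and highest in the control. The share of rpr in that sum was 40.98% in the EP3037 group, 27.8% in the hsrω RNAi group, 32.9% in the Ras group and 34.8% in the control. Diap1, the main inhibitor that these proteins bind (listed under its symbol th), was at 140, 135, 136 and 154 FPKM, between 3.29 and 3.69 times the sum in each group.

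**Figure D2:**
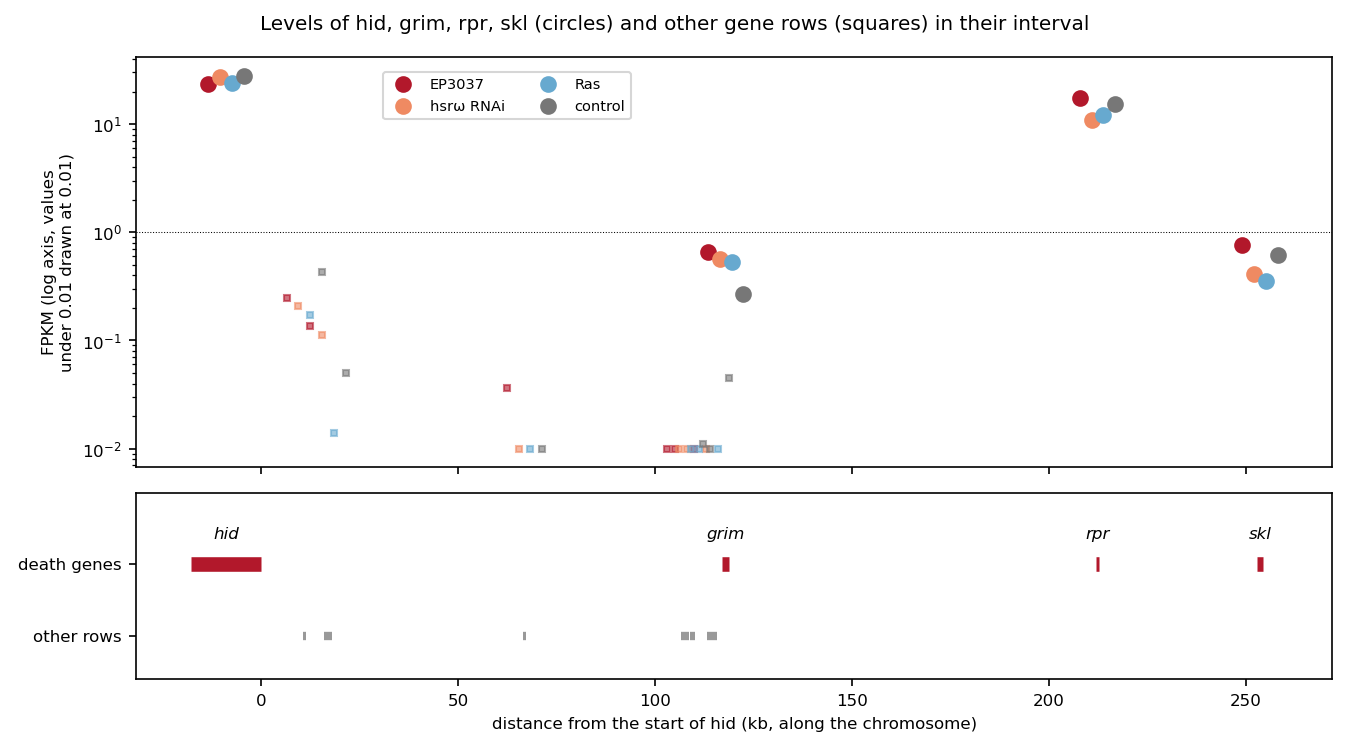
Levels (upper panel, FPKM on a log axis, values under 0.01 drawn at 0.01) and positions (lower panel) of the 10 gene rows between hid and skl, against distance in kb from the start of hid, with the EP3037, hsrω RNAi, Ras and control values of a gene side by side. The circles of hid and rpr lie above 10 FPKM, those of grim and skl between 0.270 and 0.757 FPKM, and the squares of the 6 other rows lie under 0.5 FPKM.

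Dark encodes the fly counterpart of the mammalian apoptosome protein Apaf. It lies on chromosome 2R (17020027 to 17026703, plus strand), with a longest transcript of 4883 nt in 10 exons. Its level was 9.99 FPKM in the EP3037 group, 7.70 in the hsrω RNAi group, 9.31 in the Ras group and 9.53 in the control. The hsrω RNAi group was the lowest and the other groups lay close together. The widest difference, 1.297-fold in the EP3037 group over the hsrω RNAi group, had p = 0.155 in the authors' deposited table. The antisense gene CR44390 covers 56.9% of the exonic bases of Dark and was at 12.6, 11.5, 12.3 and 12.9 FPKM in the same groups. The locus of the Dark row extends to 17026993, the end of CR44390. The library kit keeps strand, but whether the authors counted by strand is not given in the sources used here, so the levels of this pair are uncertain.

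The caspase genes stood higher and varied less. Dredd (chromosome X, 633622 to 635545, minus strand) encodes the initiator caspase of the Imd immune pathway, which cleaves the transcription factor Relish and the adaptor Imd. It was at 27.7 FPKM in the EP3037 group, 28.5 in the hsrω RNAi group, 33.9 in the Ras group and 27.6 in the control. The Ras group was the highest, 1.23-fold over the control (p = 0.357 in the authors' deposited table). Dcp-1 (chromosome 2R, 23551313 to 23553547, plus strand) encodes an effector caspase. It was at 25.2, 23.9, 23.9 and 25.9 FPKM in these groups, a range of 1.09-fold, and its smallest p over the 6 comparisons was 0.790 in the authors' deposited tables. The test of Dcp-1 was less precise than those of the other genes above 1 FPKM. The ratio of its log2 fold change to the deposited test statistic, taken as a width of the test, lay between 0.79 and 0.83, against 0.36 for Traf4. This ratio is no threshold for a call. The tables bundle Dcp-1 into 1 locus with levy and pita, and pita, on the opposite strand, shares 13.7% of the exonic bases of Dcp-1 and was at 21.5, 23.4, 20.2 and 21.7 FPKM. Dredd shares 12 exonic bases with the opposite-strand gene Mybbp1A, listed as l(1)1Bi. The locus of the Dredd row, 629773 to 635545, likewise takes in that gene.

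The gene dnr1 (chromosome 2R, 22563152 to 22592964, minus strand) spans 29813 bp and has a longest transcript of 3553 nt in 4 exons. Its product was identified as a repressor of Dredd in fly immune signalling. It was at 12.0 FPKM in the EP3037 group, 10.3 in the hsrω RNAi group, 6.75 in the Ras group and 9.80 in the control. The Ras group alone stood low, and the control lay nearer to both groups that carried an hsrω construct. In the EP3037 group it rose 1.78-fold over the Ras group, a log2 change of 0.83 (p = 0.0001, q = 0.0140 by Cuffdiff in the authors' deposited table). In the hsrω RNAi group it was 1.52-fold higher than in the Ras group (p = 0.0052, q = 0.238 in the authors' deposited table), which was not called. The EP3037 group was 1.17-fold over the hsrω RNAi group (p = 0.258 in the authors' deposited table), so these constructs were not shown to differ. In the Ras group over the control the log2 difference was -0.54 (p = 0.0156, q = 0.453 in the authors' deposited table), and in the EP3037 group over the control 0.29 (p = 0.171). The annotation shows no other gene over dnr1 apart from a transposable element that shares 0 exonic bases with it. Dredd, the caspase that its product restrains, had a log2 difference of -0.29 in the EP3037 group over the Ras group (p = 0.360 in the authors' deposited table). The groups that differed in dnr1 also differed in the markers of other tissues. The summed level of 5 ring gland markers was 55.0 FPKM in the EP3037 group and 145 FPKM in the Ras group. Of these markers, 3 of 5 were called lower, in a comparison where 0.786% of all tested rows were called. The summed level of 10 haemocyte markers was 150 and 113 FPKM in these groups. Of these, 2 of 10 were called higher and 0 were listed at 0. Their part in the dnr1 result was not tested. In bulk RNA, a change in how many cells of a type were present and a change in the RNA of each cell cannot be told apart.

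Traf4 (chromosome 2L, 4361925 to 4380716, plus strand, longest transcript of 2675 nt in 3 exons) was at 30.4 FPKM in the EP3037 group, 42.8 in the hsrω RNAi group, 29.2 in the Ras group and 26.4 in the control. The hsrω RNAi group alone stood high, and the other groups lay between 26.4 and 30.4 FPKM. It rose 1.62-fold in the hsrω RNAi group over the control, a log2 change of 0.70 (p = 0.00025, q = 0.0284 by Cuffdiff in the authors' deposited table). These groups differ in RasV12, the RNAi construct and dco2, whose effects cannot be told apart in this comparison. Traf4 was 1.47-fold higher in the hsrω RNAi group than in the Ras group, which also carried RasV12 (p = 0.00455, q = 0.220 in the authors' deposited table). In the EP3037 group over the hsrω RNAi group its log2 difference was -0.49 (p = 0.0108, q = 0.367 in the authors' deposited table), and neither of these was called. In the Ras group over the control the log2 difference was 0.15 (p = 0.472 in the authors' deposited table). The p-values with the hsrω RNAi group, that of the call included, rest on 4 inputs for 3 samples. The fold of Traf4 over the control was the smallest called in that comparison among rows within a factor of 2 of its level. The opposite-strand noncoding gene CR45363 shares 26.8% of its exonic bases and was at 4.17, 4.89, 4.11 and 2.30 FPKM in the EP3037, hsrω RNAi, Ras and control groups, without being called. Haemocyte markers summed to 217 FPKM in the hsrω RNAi group and 130 in the control, with 2 of 10 called higher and 1 lower. Most of that difference came from PPO1, at 81.28 and 36.96 FPKM, and PPO2, at 64.68 and 24.097 FPKM in these groups. The median haemocyte marker was at 8.996 and 8.863 FPKM. He and NimC1 were lower in the hsrω RNAi group and the other haemocyte markers higher. The list includes lz, also an eye disc marker, at 29.57 and 28.93 FPKM. Fat body markers summed to 9.42 and 50.8 FPKM, with 5 of 6 called lower. Ring gland markers summed to 58.8 FPKM in the hsrω RNAi group and 112 FPKM in the control, with 2 of 5 called lower. Of the eye disc markers 1 of 12 was called higher, and of the brain neuron markers 1 of 3 tested. Their median log2 differences were 0.09 and 0.28. Their part in the Traf4 result was not tested.

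**Figure D3:**
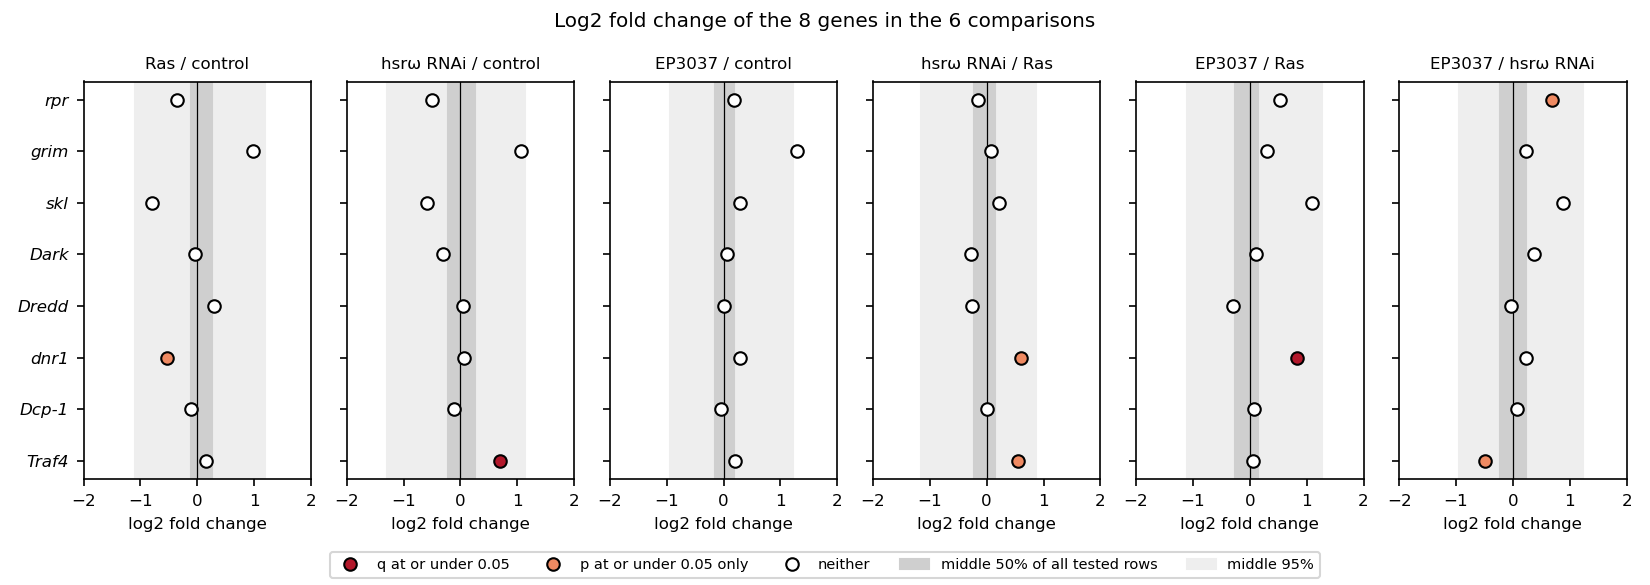
Log2 fold change (x axis) of the 8 genes (rows) in each of the 6 comparisons (panels, the group named first over the group named second), with the middle 50% and 95% of all tested rows as grey bands. The filled dark red points are the called changes, dnr1 at 0.83 in EP3037 over Ras and Traf4 at 0.70 in hsrω RNAi over control, and orange points passed p at or under 0.05 without being called.

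No comparison had more than 1 of the 8 genes called. In the Ras group over the control, 0 of 8 were called by Cuffdiff while 0.773% of 10996 tested rows were, and with no adjustment, p of 0.05 or less, the counts were 1 of 8, dnr1, and 4.63%. In the hsrω RNAi group over the control, Traf4 was the 1 of 8 called, beside 1.72% of rows, and again the 1 of 8 at the unadjusted level, beside 8.74%. In the EP3037 group over the control, 0 of 8 were called by Cuffdiff and 0 of 8 passed unadjusted, beside 0.643% and 3.52% of rows. In the hsrω RNAi group over the Ras group, 0 of 8 were called by Cuffdiff beside 0.743% of rows, and dnr1 and Traf4 passed unadjusted, 2 of 8 beside 5.20%. In the EP3037 group over the Ras group, dnr1 was the 1 of 8 called beside 0.786% of rows, and the 1 of 8 that passed unadjusted beside 5.89%. In the EP3037 group over the hsrω RNAi group, 0 of 8 were called by Cuffdiff beside 1.74% of rows, and rpr and Traf4 passed unadjusted, 2 of 8 beside 9.43%. The comparisons share groups, and the 8 genes were picked with results of these data known, so their counts are no test of the set.

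The direction of the 8 genes was mixed when the Ras group was compared with the control, with 3 above 0 and 5 below on the log2 scale and a median of -0.08, against 0.05 for all tested rows. The hsrω RNAi group gave 4 above and 4 below over the control, with a median of -0.04 against 0.00 for all tested rows, and 5 above and 3 below over the Ras group, with a median of 0.04 against -0.02. In the EP3037 group 7 of the 8 stood above 0 over the control and 7 of the 8 over the Ras group, with medians of 0.19 and 0.21 against -0.01 and -0.05 for all tested rows, and 6 of 8 over the hsrω RNAi group. Of these, dnr1 over the Ras group is the call, and grim and skl, with the widest folds, were under 1 FPKM.

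The wider cell death machinery was read from a list of 72 entries, of which 68 had a row, 60 of them other than the 8 genes. None of these 60 was called by Cuffdiff in any comparison, 0 of 347 tests beside 1.07% of the tests of all rows. Over these tests 14 had an unadjusted p at or under 0.05, which is 4.03%, against 6.23% over all rows and comparisons. Their median log2 change lay between -0.04 and 0.02 over the 6 comparisons, and that of all tested rows between -0.05 and 0.05. Of the 55 at 1 FPKM or more in every group, 51 had a highest group less than 1.5 times the lowest.

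The core executioners are among them. Dronc, the initiator caspase that Dark activates (listed as Nc, chromosome 3L, 9968479 to 9971002), was at 36.7 FPKM in the EP3037 group, 28.9 in the hsrω RNAi group, 36.9 in the Ras group and 34.1 in the control. Drice, the main effector caspase (listed as Ice, chromosome 3R, 29799658 to 29801584), was at 44.5, 47.2, 45.6 and 42.1 FPKM. Both caspase genes were therefore more abundant than Dark and Dcp-1 in every group. The minor caspases Damm and Decay were under 1 FPKM throughout, Decay being listed at 0 in the hsrω RNAi group.

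Of the inhibitors, 0 of 4 were called by Cuffdiff in any comparison, beside 1.07% of the tests of all rows. Unadjusted, 1 of their 24 tests passed, which is 4.17% beside 6.23% of the tests of all rows. This was Bruce, a very large ubiquitin-conjugating inhibitor protein, at 28.3 FPKM in the EP3037 group and 40.3 FPKM in the hsrω RNAi group (p = 0.0211, q = 0.532 in the authors' deposited table). Diap1 did not pass at that level in any comparison.

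In the tumour necrosis factor and JNK branch, where Traf4 acts, 10 other genes were listed. Of these, 0 were called by Cuffdiff, beside 1.07% of the tests of all rows. Unadjusted, 6 of their 60 tests passed, in 5 genes, beside 6.23% of the tests of all rows. The ligand gene egr, the fly tumour necrosis factor, was at 12.0 FPKM in the hsrω RNAi group and 8.31 in the control (p = 0.0175, q = 0.483 in the authors' deposited table). The kinase gene hep was at 12.1 FPKM in the EP3037 group and 17.1 in the hsrω RNAi group (p = 0.0117 in the authors' deposited table), while its substrate bsk, the JNK gene, was at 60.6 and 44.6 FPKM in these groups (p = 0.0228). The JNK target and feedback phosphatase gene puc, named after its values were seen, was at 29.9 FPKM in the EP3037 group and 21.8 in the Ras group (p = 0.0375 in the authors' deposited table). The Fos gene kay was at 41.4 FPKM in the EP3037 group and 30.2 in the Ras group (p = 0.0315 by Cuffdiff in the authors' deposited table), and at 40.1 FPKM in the hsrω RNAi group (p = 0.0387 over the Ras group).

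Among 12 engulfment genes, by which neighbours and haemocytes take up dead cells, 0 were called, beside 1.07% of the tests of all rows. Unadjusted, 5 of their 66 tests passed, which is 7.58% beside 6.23% of the tests of all rows, in 3 genes of which 2 are described. The adaptor gene Ced-6 was at 28.7 FPKM in the hsrω RNAi group and 40.8 in the control (p = 0.00825, q = 0.317 in the authors' deposited table), and at 30.7 in the Ras group (p = 0.0443 over the control). The scavenger receptor gene Sr-CI, itself on the haemocyte list, was at 5.56 FPKM in the hsrω RNAi group and 2.81 in the Ras group (p = 0.00115, q = 0.0865 in the authors' deposited table). It was at 2.81 FPKM in the Ras group and 4.54 in the control (p = 0.0335, q = 0.671 in the authors' deposited table).

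**Figure D4:**
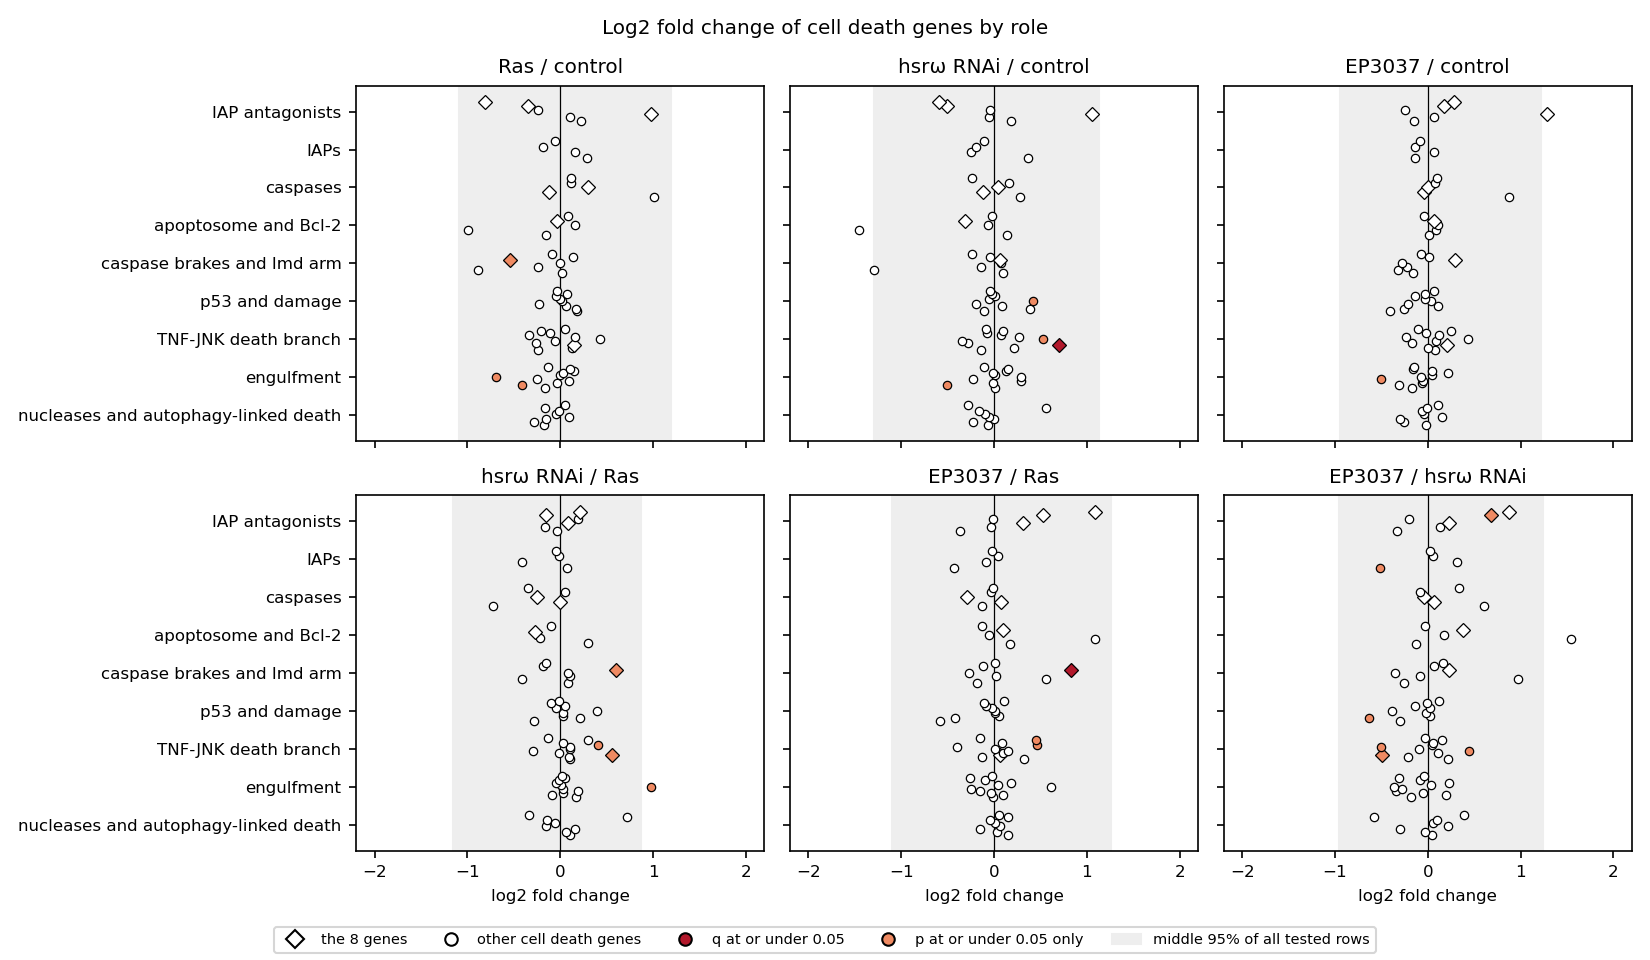
Log2 fold change (x axis) of every tested cell death gene with a finite value, arranged by role (rows) in the 6 comparisons (panels, the group named first over the group named second), with the 8 genes as diamonds, the others as circles and the middle 95% of all tested rows in grey. The only dark red, called symbols are the diamonds of Traf4 in hsrω RNAi over control and dnr1 in EP3037 over Ras.

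For rpr, dnr1 and Traf4, the genes whose level was most alike across the 4 groups were found by the distance between log2 levels centred on each gene's mean, over 8341 single-gene rows at 1 FPKM or more in every group. Nearest to dnr1 was CG14829, at 2.54 FPKM in the EP3037 group, 2.01 in the hsrω RNAi group, 1.44 in the Ras group and 1.97 in the control (distance 0.10), followed by CG15202 and CG14879. Nearest to rpr were olf186-M (distance 0.03), CG14253 and CG15456. Nearest to Traf4 were Tdc1, which overlaps 7 rows, and phyl, an adaptor gene of photoreceptor fate, at 11.6, 17.3, 11.001 and 10.5 FPKM in these groups (distance 0.08 for both), and then CG8112. Each profile has 4 points, so this likeness is a description of the pooled levels only.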

How the data were processed

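Libraries were made from total RNA with a stranded kit that removes ribosomal RNA and read as 50 bp pairs, 12 samples per lane over 2 lanes, per the labels' protocols. TopHat, Bowtie, Cufflinks, Cuffdiff 2.1.1 and build dm6 are named, per the submitters' processing notes; no source used here gives the annotation or the strand setting of the counting. The authors deposited 1 pooled FPKM per gene and group, a test statistic, which is a score, and a p-value and q-value per comparison, per the file headers. The hsrω RNAi group entered as 4 inputs for 3 samples, 1 being listed as 2 inputs. Log2 fold changes were computed here from the deposited FPKM without a pseudocount. Deposited q differed from a Benjamini-Hochberg adjustment over all 65927 tests by at most 1.56e-05. Depth per sample is unknown, so no interval or floor is given. Since nothing says that samples came from separate crosses, p-values measure at most the spread between samples. Whether the sample listed as 2 inputs was counted as 2 replicates is not given. If it was, the p-values of comparisons with the hsrω RNAi group, the Traf4 call included, mix in the spread within that sample and are less certain.

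Rows were matched by symbol, synonym and locus to Ensembl release 115 (dm6 coordinates), 15588 of 15904 in all, with pandas 2.3.3 and numpy 2.4.6. The members and lists were chosen with earlier results of these data known. Named beside the 8 genes were hid, Diap1, Dronc, Drice, Hsromega, genes overlapping a member, up to 4 genes per list at an unadjusted p of 0.05 and the 3 nearest profiles of members at 1 FPKM or more in every group whose highest group was at least 1.3 times the lowest; puc, Damm and Decay were chosen after their values were seen. The recomputation of q was tested on simulated data. One engulfment gene that the naming rule selects is not reported here.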

Additional observations from a re-analysis of the deposited data

How the results depend on the processing

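No paired analysis was possible because each table holds 1 pooled value per group, and leaving out a replicate was likewise not run. At a q of 0.01 the called members became 0 in the hsrω RNAi group over the control and 0 in the EP3037 group over the Ras group. At an unadjusted p of 0.05 they became 1 in the Ras group over the control, 2 in the hsrω RNAi group over the Ras group and 2 in the EP3037 group over the hsrω RNAi group. Adjusting within a comparison, or over rows at 1 FPKM or more, left the count of called members as it was in all 6 comparisons. The planned centring and length corrections with a normal p from the deposited statistic were not run, since that p was typically 144 times the deposited p among called tests. Their replacements, chosen after seeing the data, used the spread implied by the deposited p and also left all 6 counts as they were, with q = 0.0365 for dnr1 in the EP3037 group over the Ras group and q = 0.0277 for Traf4 in the hsrω RNAi group over the control after the length trend was subtracted. That trend turned 1 of 48 log2 changes, rpr in the hsrω RNAi group over the Ras group, to 0.036, and the cause was not tested. Pseudocounts of 1 and 0.1 turned 0 of 48, and moved values by up to 0.90, for grim.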

Other observations

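Fadd, the adaptor gene that links Imd to Dredd, had the widest range of the other cell death genes at 1 FPKM or more, a choice made after its values were seen. It was at 7.62 FPKM in the EP3037 group, 3.89 in the hsrω RNAi group, 5.17 in the Ras group and 9.52 in the control. Its level in the hsrω RNAi group was not called against the control (p = 0.0687, q = 0.912 in the authors' deposited table), and its locus overlaps 2 other rows. The upstream adaptor gene imd and the tumour suppressor gene p53 were likewise picked afterwards, and imd was at 9.40, 9.005, 10.2 and 9.30 FPKM in these groups. The growth regulator gene E2f1, listed as E2f, was at 51.1 FPKM in the EP3037 group and 79.6 in the hsrω RNAi group (p = 0.00265, q = 0.155 in the authors' deposited table). Xrp1, a stress-response transcription factor gene, was at 135 FPKM in the hsrω RNAi group and 101 in the control (p = 0.0412, q = 0.742 in the authors' deposited table), while p53 lay between 6.43 and 6.91 FPKM in the 4 groups.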
